A study of Mus musculus with 7 samples.

Results

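Saa3, Reg3g, Lcn2, Serpina3n, C3, Cxcl15, Prg4 and Ch25h are mouse genes of the acute-phase and innate defence response. They were chosen by name because several of them are among the largest gains in the library labelled Utx knockout (KO) with doxycycline (DOX). The platform annotation gave 7 of the 8 genes a row of their own, 1 row each, among 13562 genes in all. It named no row for C3, which has no value here and enters only the counts of sequence motifs. Ch25h encodes a membrane enzyme and not a secreted protein, so the genes are called by their names below.

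RNA from 7 mouse samples was hybridised to Affymetrix arrays, 1 array per condition. Fibroblasts made from Nanog-/- embryonic stem cells (ESCs) had carried a lentivirus with Oct4, Sox2, Klf4 and Myc (OSKM, the reprogramming factors) for 8 days. The ESCs were of the V6.5 line, Utx -/Y (KO) and Utx +/Y (wild type, WT). The mouse embryonic fibroblasts (MEFs) were V19-OSKM cells, Utx -/Y with DOX, Utx +/Y with DOX, Utx -/Y without DOX and Utx +/Y without DOX. DOX is the drug that switches on OSKM in these MEFs, so the MEFs without DOX carry the same inducible factors. For the time with DOX and the number of embryos or clones there is no statement in the sources used, and the labels give an ESC medium for every sample. Utx, encoded by Kdm6a, is an enzyme that takes a repressive methyl mark off histone H3.

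The acute-phase response is the change in secreted proteins that follows infection or injury. Cytokines such as interleukin 6, interleukin 1 and tumour necrosis factor drive it through STAT3, NF-kB and C/EBP transcription factors. The liver makes most of the circulating proteins, while fibroblasts, epithelia and macrophages make local ones. In mouse, Saa3 is a serum amyloid A made mainly outside the liver, and Lcn2 withholds iron from bacteria by binding their siderophores. Fibroblast cultures from embryos can also hold macrophages, which carry part of this programme themselves.

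Values are deposited log2 signals, and differences are on the log2 scale, the first named library minus the second. A gene is counted where it differed by 2-fold or more (1 on the log2 scale) and its higher value exceeded a floor of 7.34, the 40th percentile of all values. No condition was repeated, so the differences below come without a replicate check and without a test. Precision is limited by having a single array for each condition. In such bulk samples fewer cells of a type and less RNA per cell cannot be told apart. Since the genes were chosen for their gain in the KO-labelled library with DOX, their differences in comparisons with that library are a description of how they were chosen.

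The target gene and the induced factor were read in every library. Kdm6a read 9.08 on the Nanog KO array, 7.97 in KO and 9.12 in WT ESCs, 7.57 and 8.93 in the libraries labelled KO and WT with DOX, and 6.32 and 8.22 in those labelled KO and WT without DOX. Pou5f1, the gene for Oct4, read 5.12 in the KO-labelled library with DOX, against 12.59 in WT MEFs with DOX. It read 11.26 in the KO-labelled library without DOX, against 8.19 in WT MEFs without DOX. Pou5f1 thus went against the DOX labels of both KO MEF libraries, which are named by their labels throughout. A direction taken from these libraries is a direction between labels. The median of an array lay between 7.68 and 7.84 for the 6 Utx arrays and at 8.55 for Nanog KO, so differences of the Nanog KO array are set beside that shift.

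The stretch from 250 bases before to 50 bases after the start is shown for 5 genes, those measured genes whose window held a motif match. The window of Serpina3n held none and is not shown. The windows are RefSeq's for GRCm38.p6, and 7 of the 8 genes had one, C3 included and Prg4 not. Capitals mark a match on either strand to 1 of 5 motifs, which are the NF-kB consensus, STAT (TTCNNNGAA), C/EBP (TTGCNNAA), AP-1 (TGANTCA) and the TATA box (TATAAA). The windows lie at chr7:46715627-46715926 on the minus strand for Saa3, chr2:32387690-32387989 on the minus strand for Lcn2, chr19:34475099-34475398 on the minus strand for Ch25h, chr6:78468825-78469124 on the minus strand for Reg3g and chr5:90794284-90794583 on the plus strand for Cxcl15.
Saa3: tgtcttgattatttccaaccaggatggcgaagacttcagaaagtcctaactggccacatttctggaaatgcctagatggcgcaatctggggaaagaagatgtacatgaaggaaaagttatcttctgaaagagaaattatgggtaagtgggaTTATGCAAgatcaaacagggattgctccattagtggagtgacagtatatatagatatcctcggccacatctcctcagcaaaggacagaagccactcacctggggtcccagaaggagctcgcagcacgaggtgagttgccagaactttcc
Lcn2: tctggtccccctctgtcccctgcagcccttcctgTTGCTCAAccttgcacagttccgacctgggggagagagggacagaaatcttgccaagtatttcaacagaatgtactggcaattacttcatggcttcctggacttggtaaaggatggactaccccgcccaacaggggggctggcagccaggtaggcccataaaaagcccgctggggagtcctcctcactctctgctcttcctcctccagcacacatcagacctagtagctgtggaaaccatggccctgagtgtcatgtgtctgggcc
Ch25h: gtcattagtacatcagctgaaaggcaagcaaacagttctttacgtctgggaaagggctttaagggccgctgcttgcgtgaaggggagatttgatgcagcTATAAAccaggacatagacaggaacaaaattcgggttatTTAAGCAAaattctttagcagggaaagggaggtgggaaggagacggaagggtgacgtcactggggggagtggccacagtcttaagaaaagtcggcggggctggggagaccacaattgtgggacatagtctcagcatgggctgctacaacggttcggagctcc
Reg3g: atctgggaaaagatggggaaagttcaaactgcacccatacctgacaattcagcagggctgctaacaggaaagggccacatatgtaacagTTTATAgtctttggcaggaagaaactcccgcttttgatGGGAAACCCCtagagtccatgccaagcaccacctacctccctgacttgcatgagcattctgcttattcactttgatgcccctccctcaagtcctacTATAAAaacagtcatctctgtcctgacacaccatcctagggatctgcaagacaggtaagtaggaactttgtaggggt
Cxcl15: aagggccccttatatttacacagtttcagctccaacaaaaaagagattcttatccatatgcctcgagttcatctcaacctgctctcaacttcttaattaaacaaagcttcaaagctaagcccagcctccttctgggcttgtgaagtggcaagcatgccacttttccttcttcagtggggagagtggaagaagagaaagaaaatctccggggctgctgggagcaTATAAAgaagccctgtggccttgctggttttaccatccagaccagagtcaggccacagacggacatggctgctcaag

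The C/EBP letters stood in 4 of the 7 windows, those of Saa3, Lcn2, Ch25h and C3, and in 10.8% of the 32851 windows in the table. Their first base lay at -99 in Saa3, -216 in Lcn2, -112 in Ch25h and -45 in C3, counted from the start. Reg3g and Cxcl15 each held TATAAA at -27 to -22, the usual place of a TATA box, and 13.6% of all windows held these letters somewhere. Over the 7 windows TATAAA stood in 4, those of Reg3g, Cxcl15, Ch25h and C3, although in C3 it lay past the start. In Ch25h it lay at -151 to -146, away from that usual place, and Reg3g held a second match on the minus strand at -161 to -156. The NF-kB consensus stood in 1 of the 7, that of Reg3g at -123 to -114, where both strands matched, and in 8.46% of all windows. STAT letters stood in 0 of the 7 windows and 8.30% of all, and AP-1 letters in 0 of the 7 and 7.81% of all. These counts describe letters in short windows and do not show binding.

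**Figure D1:**
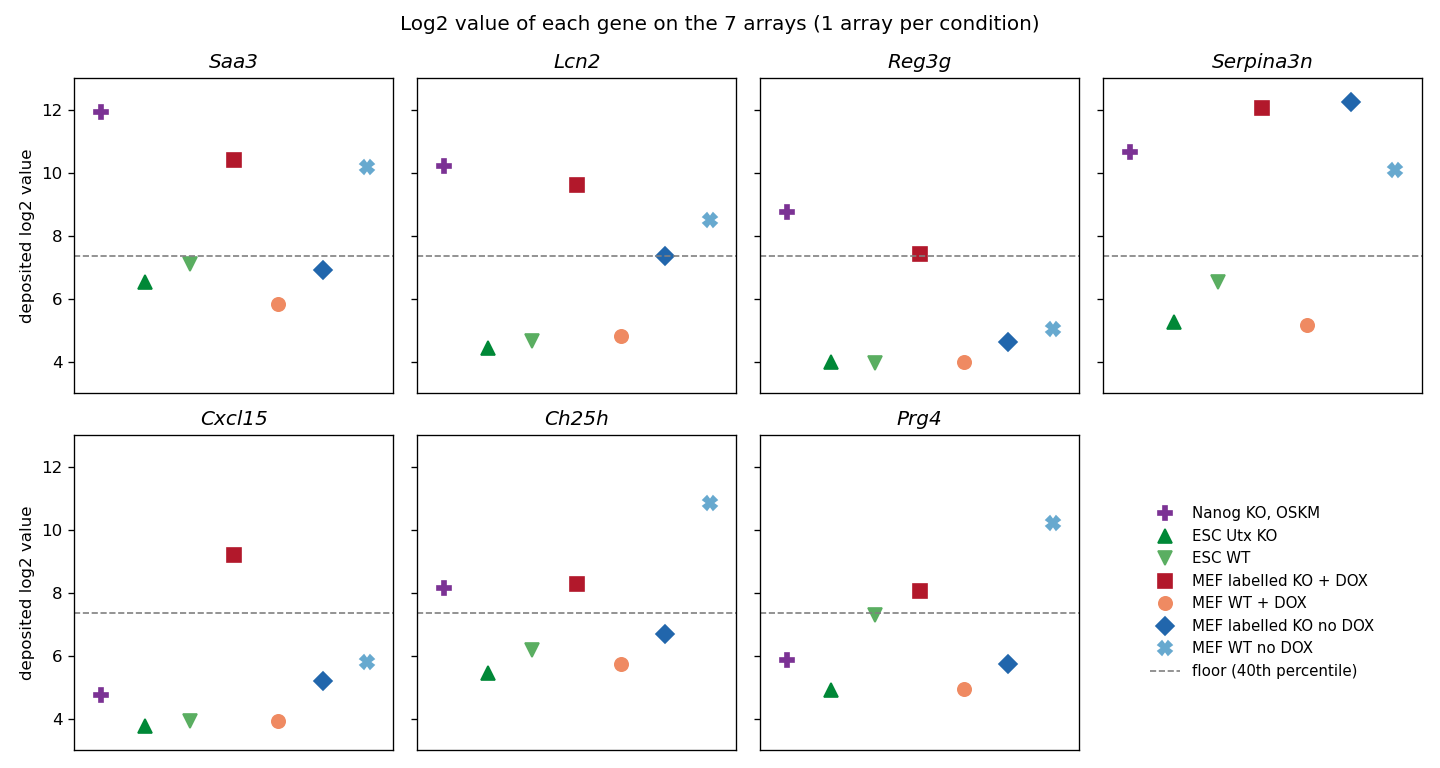
Deposited log2 value (vertical axis) of each of the 7 genes on the 7 arrays, 1 point per array, with the floor of 7.34 as a dashed line. Only the KO-labelled library with DOX (square) lies above the floor for all 7 genes, while both ESC libraries (triangles) and WT MEFs with DOX (circle) lie under it for all 7.

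The 7 genes did not share 1 order of arrays. All 7 lay above the floor in the KO-labelled library with DOX, 5 on the Nanog KO array, 5 in WT MEFs without DOX and 2 in the KO-labelled library without DOX. In WT MEFs with DOX, KO ESCs and WT ESCs 0 of the 7 lay above it. Saa3, Lcn2 and Reg3g read highest on the Nanog KO array, though with its median aligned Lcn2 read 9.49 there and was highest in the KO-labelled library with DOX. Ch25h and Prg4 read highest in WT MEFs without DOX, Cxcl15 in the KO-labelled library with DOX and Serpina3n in the KO-labelled library without DOX.

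Saa3, the serum amyloid A of inflamed tissue and macrophages, read 11.93 on the Nanog KO array, 6.52 in KO ESCs and 7.09 in WT ESCs. In the MEFs it read 10.40 in the KO-labelled library with DOX, 5.83 in WT with DOX, 6.90 in the KO-labelled library without DOX and 10.18 in WT without DOX. It was thus high in 3 libraries and under the floor in the other 4. The KO-labelled library with DOX differed from WT MEFs without DOX by 0.22, the only difference of the 7 genes within 2-fold in that comparison.

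Lcn2, the siderophore-binding lipocalin, read 10.23 on the Nanog KO array, 4.44 in KO ESCs and 4.67 in WT ESCs. It read 9.60 in the KO-labelled library with DOX, 4.80 in WT MEFs with DOX, 7.37 in the KO-labelled library without DOX and 8.50 in WT MEFs without DOX. On the deposited values its order over the 5 fibroblast libraries was that of Saa3, with the KO-labelled library without DOX just above the floor. With the Nanog KO median aligned the KO-labelled library with DOX came first for Lcn2, at 9.60 against 9.49, but not for Saa3, at 10.40 against 11.19. Slc22a17, which encodes a receptor proposed for Lcn2, read 7.71 and 7.25 in the libraries labelled KO and WT with DOX and 7.70 and 8.25 in those labelled KO and WT without DOX.

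Reg3g, a lectin that kills gram-positive bacteria and is known from the gut, read 8.75 on the Nanog KO array, 3.98 in KO ESCs and 3.96 in WT ESCs. It read 7.42 in the KO-labelled library with DOX, 3.99 in WT MEFs with DOX, 4.63 in the KO-labelled library without DOX and 5.03 in WT MEFs without DOX. The value in the KO-labelled library with DOX lay only just above the floor, and 5 libraries lay well under it.

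Serpina3n, an inhibitor of serine proteases such as granzyme B, read 10.66 on the Nanog KO array, 5.27 in KO ESCs and 6.53 in WT ESCs. It read 12.07 in the KO-labelled library with DOX, 5.17 in WT MEFs with DOX, 12.26 in the KO-labelled library without DOX and 10.07 in WT MEFs without DOX. Both KO MEF libraries thus lay above all the others, and they differed from each other by -0.19. It was the 1 gene of the 7 that was not 2-fold higher with DOX in the MEFs labelled KO.

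Cxcl15, a chemokine that draws neutrophils and is known from lung epithelium, read 4.74 on the Nanog KO array, 3.77 in KO ESCs and 3.91 in WT ESCs. It read 9.21 in the KO-labelled library with DOX, 3.93 in WT MEFs with DOX, 5.18 in the KO-labelled library without DOX and 5.79 in WT MEFs without DOX. A single library lay above the floor, and the next highest lay 3.43 below it.

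Ch25h, the enzyme that turns cholesterol into an oxysterol with antiviral action, read 8.15 on the Nanog KO array, 5.46 in KO ESCs and 6.16 in WT ESCs. It read 8.29 in the KO-labelled library with DOX, 5.74 in WT MEFs with DOX, 6.70 in the KO-labelled library without DOX and 10.84 in WT MEFs without DOX. WT MEFs without DOX stood highest, and the KO-labelled library with DOX and the Nanog KO array came next at nearly the same value.

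Prg4, the lubricating glycoprotein of joints and tendons, read 5.85 on the Nanog KO array, 4.90 in KO ESCs and 7.28 in WT ESCs. It read 8.05 in the KO-labelled library with DOX, 4.95 in WT MEFs with DOX, 5.74 in the KO-labelled library without DOX and 10.22 in WT MEFs without DOX. It was the 1 gene of the 7 that lay under the floor on the Nanog KO array while WT MEFs without DOX read high.

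With DOX, all 7 genes were 2-fold or more higher in the KO-labelled library than in WT MEFs, the comparison in which 26.4% of 9572 genes were 2-fold or more apart, 14.3% higher and 12.1% lower. The choice of the genes rests on this library, so the count is a description. With a floor at the 60th percentile (8.48) it was 4, and with the KO MEF libraries exchanged between their DOX labels it was 2, Serpina3n and Lcn2. Serpina3n differed by 6.90 and was at least 26.5-fold higher with the WT side set to the floor. Cxcl15 differed by 5.29, Lcn2 by 4.80, Saa3 by 4.57, Reg3g by 3.42, Prg4 by 3.10 and Ch25h by 2.54. The WT side lay under the floor for all 7, so that the bound was at least 8.33-fold for Saa3, 4.80-fold for Lcn2 and 3.66-fold for Cxcl15. It was under 2-fold for Ch25h (1.93), Prg4 (1.64) and Reg3g (1.05). Fibroblast markers moved with the genes, with 12 of 13 higher, a median difference of 4.23 and a summed linear signal of 41148 against 7787. Of 7 macrophage markers above the floor 5 were higher, with a summed signal of 4248 against 1704 over the 14 measured. Here and below such a sum does not measure macrophages alone. It was 5589 in WT ESCs and 6481 in KO ESCs, where Laptm5 read 11.92 and 12.08 and Cd68 10.31 and 10.77. Epithelial markers went the other way, with 11 of 11 lower and a median level of 5.52 against 10.85. The part of these lists in the result was not tested.

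Between the MEF libraries labelled KO, 6 of the 7 genes were 2-fold or more higher with DOX, where 9.74% of 9119 genes were apart, 6.81% higher (621) and 2.93% lower (267). With the array medians aligned these counts were 481 and 378. Cxcl15 differed by 4.03, Saa3 by 3.50, Reg3g by 2.78, Prg4 by 2.31, Lcn2 by 2.24 and Ch25h by 1.59. The side without DOX lay under the floor for 5 of the 6, all but Lcn2, which was 4.72-fold higher. With that side set to the floor, Saa3 was at least 8.33-fold and Cxcl15 at least 3.66-fold higher, while the bound was 1.93-fold for Ch25h, 1.64-fold for Prg4 and 1.05-fold for Reg3g. The count was 3 with the floor at the 60th percentile. These are the libraries whose DOX labels Pou5f1 went against, and with the labels exchanged the same 6 genes were lower with DOX, Saa3 by -3.50 and Cxcl15 by -4.03. Macrophage markers read higher as well, with 6 of 7 markers above the floor higher and 1 lower, a median of 0.98 over the 14 measured and a summed signal of 4248 against 2766. Fibroblast markers had 3 of 13 higher and a median of 0.59, and epithelial markers had 4 of 4 lower. The part of these lists in the result was not tested.

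In WT MEFs, 5 of the 5 genes above the floor were lower with DOX, where 25.6% of 9524 genes were apart and 13.7% lower. Prg4 differed by -5.27, Ch25h by -5.10, Serpina3n by -4.90, Saa3 by -4.35 and Lcn2 by -3.70. With the DOX side set to the floor, Ch25h was at least 11.4-fold lower, Prg4 at least 7.37-fold and Saa3 at least 7.15-fold lower. Cxcl15 at -1.86 and Reg3g at -1.03 lay under the floor on both arrays. Macrophage markers (12 of 13 lower, median -3.85 over the 14 measured) and fibroblast markers (12 of 13 lower, median -4.37) were lower with DOX in the same cells. Epithelial markers were higher, 11 of 11 with a median of 4.77. The part of these lists was not tested.

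**Figure D2:**
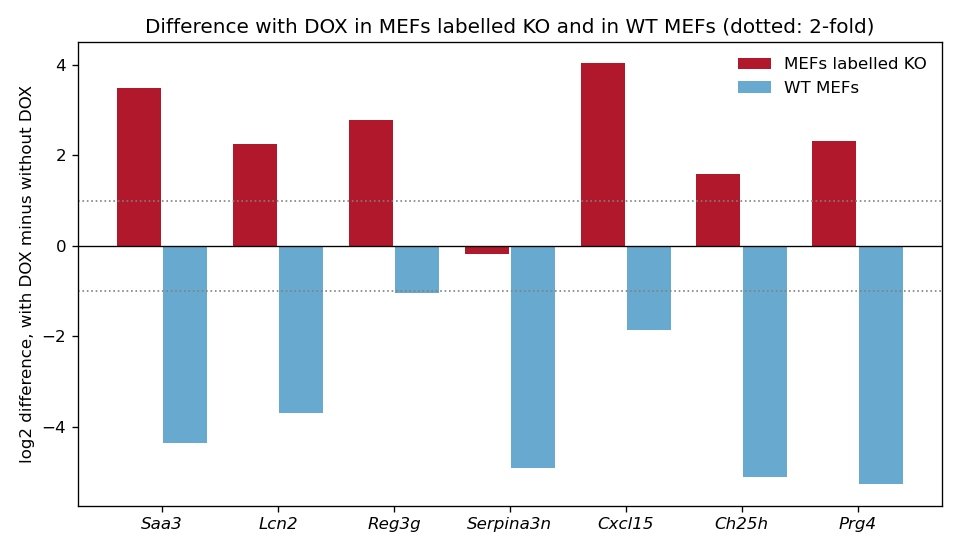
Log2 difference with DOX minus without DOX (vertical axis) for each gene, in MEFs labelled KO (red, left bar) and WT MEFs (blue, right bar), with dotted lines at 2-fold. Each bar is the difference of 2 single arrays, and the bars point in opposite directions for 6 of the 7 genes, with Serpina3n at -0.19 in the MEFs labelled KO. With the DOX labels of the KO libraries exchanged every red bar would have the opposite sign.

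The KO-labelled library with DOX was also set against WT MEFs without DOX, a comparison in which 4.51% of 9024 genes were 2-fold or more apart. Of the 7 genes, 6 were apart, 4 higher and 2 lower, against 1.88% of all genes higher and 2.63% lower. Cxcl15 differed by 3.43, Reg3g by 2.39, Serpina3n by 2.00 and Lcn2 by 1.10, while Ch25h differed by -2.56 and Prg4 by -2.17. WT MEFs without DOX lay under the floor for Cxcl15 and Reg3g, which bounds Cxcl15 at 3.66-fold and Reg3g at 1.05-fold higher. In linear terms Serpina3n was 3.99-fold and Lcn2 2.15-fold higher, while Ch25h was 5.89-fold and Prg4 4.50-fold lower. Since the first library is the one the choice rests on, nothing is read from the higher genes.

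Macrophage markers were lower in the same comparison, with 13 of 13 above the floor lower. Their median was -1.90 over the 14 measured, and their summed signal was 4248 against 14975. Adgre1, the macrophage surface protein, read 6.85 against 9.91 and Csf1r, the receptor for macrophage growth factor, 6.63 against 9.15. Fibroblast markers had 0 of 13 apart by 2-fold and a median of -0.06. The part of the macrophage markers in the lower values of Ch25h and Prg4 was not tested.

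Without DOX, the KO-labelled library had lower values than WT MEFs for 4 of the 5 genes above the floor and a higher value for 1. Of 9253 genes, 14.6% were apart, 9.53% were lower (882) and 5.04% higher (466), and with aligned medians the counts were 685 lower and 677 higher. Prg4 differed by -4.48, Ch25h by -4.15 and Saa3 by -3.27. With the KO side set to the floor, Ch25h was at least 11.4-fold, Prg4 at least 7.37-fold and Saa3 at least 7.15-fold lower. Lcn2 differed by -1.13, and by -0.998 with aligned medians, which is short of 2-fold. Serpina3n went the other way by 2.19, a 4.55-fold higher value. Cxcl15 and Reg3g differed by -0.60 and -0.39 under the floor. Macrophage markers had 12 of 13 lower, with a median of -2.98 over the 14 measured and a summed signal of 2766 against 14975. Fibroblast markers had 3 of 13 lower and epithelial markers 3 of 4 higher, and the part of these lists was not tested.

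Set against WT MEFs with DOX, the Nanog KO fibroblasts had higher values for all 5 of the genes above the floor. In this comparison 42.7% of 10833 genes were apart, 37.2% higher (4032) and 5.53% lower (599), and with aligned medians 1281 were higher and 1299 lower. The median gene differed by 0.76. Saa3 differed by 6.10, Serpina3n by 5.49, Lcn2 by 5.43, Reg3g by 4.76 and Ch25h by 2.41, or by 5.35, 4.73, 4.67, 4.01 and 1.65 beyond the median gene. With the WT side set to the floor, Saa3 was at least 24.1-fold higher, and the bound for Ch25h was 1.75-fold. Cxcl15 at 0.82 and Prg4 at 0.90 stayed under the floor and close to the median shift. The 9 macrophage markers above the floor were all higher, and the list's summed signal was 10472 against 1704. Fibroblast markers had 12 of 13 higher (median 4.88) and epithelial markers 11 of 11 lower (median -3.18), and the part of these lists was not tested.

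Against WT MEFs without DOX, the Nanog KO fibroblasts differed by 3.73 in Reg3g and by -4.37 in Prg4, each with 1 side under the floor. Reg3g was at least 2.66-fold higher and Prg4 at least 7.37-fold lower. Saa3 at 1.75 and Lcn2 at 1.73 were higher and Ch25h at -2.70 was lower, while Serpina3n differed by 0.59. In all, 3 of the 6 genes above the floor were higher and 2 lower, where 38.8% of 10740 genes were apart, 35.1% higher (3773) and 3.72% lower (399). With aligned medians 910 genes were higher and 1064 lower, and Lcn2, at 0.986, was no longer 2-fold apart. The median gene differed by 0.73. Macrophage markers had 5 of 13 lower and a summed signal of 10472 against 14975, fibroblast markers had 4 of 13 higher and 1 lower, and epithelial markers had 5 of 6 higher. The part of these lists was not tested.

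In ESCs the genes were low. Of the 7, 0 exceeded the floor in either ESC library, so none was counted between KO and WT ESCs, where 3.83% of 8598 genes were 2-fold or more apart, 0.651% higher and 3.18% lower. Prg4 differed by -2.38, its WT value of 7.28 lying just under the floor, and Serpina3n by -1.26, while Reg3g differed by 0.02, Cxcl15 by -0.14 and Lcn2 by -0.23. WT ESCs were lower than WT MEFs without DOX for 5 of the 5 genes above the floor, where 34.3% of 9673 genes were apart and 19.8% lower. Ch25h differed by -4.68, Lcn2 by -3.83, Serpina3n by -3.54, Saa3 by -3.09 and Prg4 by -2.94. In that comparison macrophage markers had 11 of 13 lower and 1 higher, and fibroblast markers 13 of 13 lower. Epithelial markers had 6 of 7 higher, and the part of these lists was not tested.

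The inducers of the response were read from lists of genes. Of the 16 inducing cytokines listed, 7 had a row. Il6 read 5.97 in the KO-labelled library with DOX, 3.41 in WT MEFs with DOX, 4.34 in the KO-labelled library without DOX and 7.88 in WT MEFs without DOX, and 4.80 on the Nanog KO array. Tnf read 5.95, 5.54, 6.19 and 7.68 in the same 4 MEF libraries and 6.54 on the Nanog KO array. Both cytokine genes lay above the floor only in WT MEFs without DOX, the library where Ch25h and Prg4 were highest, and under it on the Nanog KO array, where Saa3 and Reg3g were highest. Against WT MEFs without DOX, 5 of the 5 cytokine genes above the floor were lower in WT MEFs with DOX, 5 in the KO-labelled library without DOX, 5 on the Nanog KO array and 2 in the KO-labelled library with DOX. In the same order 13.7%, 9.53%, 3.72% and 2.63% of all genes were lower. Between the libraries labelled KO and WT with DOX, however, 3 of the 3 above the floor were higher, where 14.3% of all genes were. They were the macrophage growth factor gene Csf1 at 9.96 against 5.96, Il33 by 2.16 and Clcf1 by 1.14. Between the libraries labelled KO with and without DOX 1 of 3 was higher, Il33 at 1.12, where 6.81% of all genes were.

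Of 22 listed transcription factors and regulators of the response, 20 had a row. Between the libraries labelled KO and WT with DOX, 4 of the 16 above the floor were higher and 2 lower, so that 6 of 16 were apart, where 26.4% of all genes were. Cebpd, a C/EBP factor of the acute phase, differed by 1.90, Bcl3, a nuclear partner of NF-kB, by 1.68, and Irf1, an interferon-response factor, by 1.49, against -1.42 for the stress factor Atf3. Cebpb differed by 0.36, Nfkbiz by 0.80 and Socs3 by 0.59. Between the libraries labelled KO with and without DOX 1 of 15 was higher, Rel at 1.46, where 6.81% of all genes were higher. The median over the 20 measured was -0.01. Of the receptors and sensors, 3 of 16 were higher and 1 lower between the libraries labelled KO and WT with DOX. Of all genes 14.3% were higher and 12.1% lower there. The higher genes were led by Lifr at 4.15 and Osmr at 2.55, whose proteins bind relatives of interleukin 6. The lower gene was Il6ra, for the interleukin 6 receptor, at -1.71.

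Other acute-phase genes went with the named ones in some comparisons. Of 30 listed, 15 had a row, and 9 of the 12 above the floor were higher in the KO-labelled library than in WT MEFs with DOX. The median over the 15 was 2.17, and 14.3% of all genes were higher in this comparison. Ptx3, a pentraxin of fibroblasts and macrophages, differed by 5.93, Cp, the copper carrier ceruloplasmin, by 4.63, and Hp, which binds free haemoglobin, by 4.18. In WT MEFs 9 of 12 were lower with DOX, where 13.7% of all genes were, with Ptx3 at -5.47, Cp at -4.81 and Hp at -4.11. Between the KO-labelled library with DOX and WT MEFs without DOX, however, 1 of 13 was apart, where 4.51% of all genes were. This was Steap4 at 1.54, and the median of the list was -0.18. On the Nanog KO array, set against WT MEFs without DOX, 4 of 12 were higher and 4 lower, among them A2m, a protease trap, at 4.26 and Lbp, which binds bacterial lipopolysaccharide, at 3.21, against -4.36 for Il1rn and -2.77 for Hp. In that comparison 35.1% of all genes were higher and 3.72% lower. Over genes above the floor the median gene stood at 0.73 and the list at 0.28. Saa1, a close relative of Saa3 named after its values were seen, read 3.41 in the KO-labelled library with DOX and 6.54 in WT MEFs with DOX, under the floor in both.

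Complement, the cascade in which C3 is the central protein, was read from 18 of 37 listed genes. In the KO-labelled library with DOX, set against WT MEFs with DOX, 8 of 11 above the floor were higher and 1 lower, led by C1qb at 3.80 and the C3a receptor gene C3ar1 at 3.80, both of macrophages. There 14.3% of all genes were higher and 12.1% lower. Against WT MEFs without DOX the same library had 0 of 13 higher and 7 lower, where 2.63% of all genes were lower. Also against WT MEFs without DOX, 10 of 13 were lower in WT MEFs with DOX and 1 higher. In the KO-labelled library without DOX 9 of 13 were lower and 0 higher. Of all genes 13.7% and 9.53% were lower in these 2 comparisons. C3ar1 read 10.01 on the Nanog KO array, 8.30 in the KO-labelled library with DOX, 4.49 in WT MEFs with DOX, 6.67 in the KO-labelled library without DOX and 10.43 in WT MEFs without DOX. The Nanog KO array, set against WT MEFs without DOX, had 8 of 17 higher and 2 lower, with the protease gene C1ra at 4.17 and C4b, part of the enzyme that cleaves C3, at 4.02. Of all genes 35.1% were higher there, and over genes above the floor the median gene stood at 0.73 and the complement list at 0.71.

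**Figure D3:**
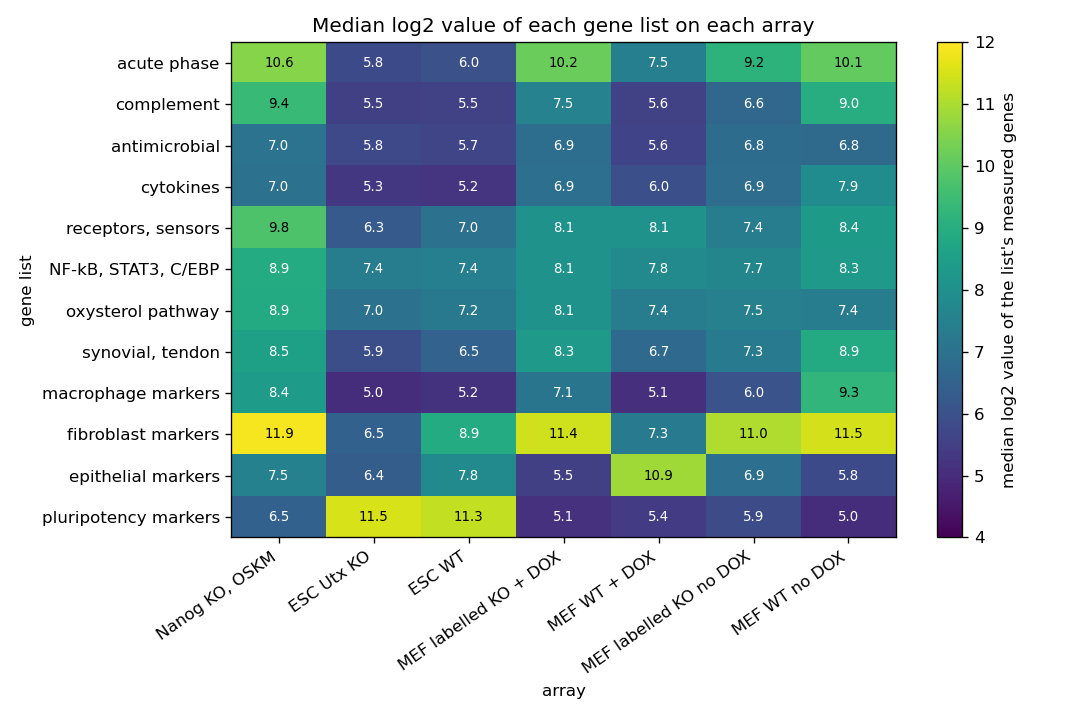
Median log2 value of the measured genes of 12 lists (rows) on the 7 arrays (columns), with the value printed in each cell and coloured from 4 to 12. The acute-phase list is low in ESCs and close together on 3 arrays, at 10.6 on the Nanog KO array (whose overall median is higher), 10.2 in the KO-labelled library with DOX and 10.1 in WT MEFs without DOX, and the macrophage list runs from 9.3 in WT MEFs without DOX to 5.0 in KO ESCs.

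The oxysterol made by Ch25h is passed on by Cyp7b1 and Hsd3b7 and sensed by the receptor Gpr183. Cyp7b1 read 8.67 in the KO-labelled library with DOX, 4.44 in WT MEFs with DOX, 6.78 in the KO-labelled library without DOX and 7.41 in WT MEFs without DOX. Its order differed from that of Ch25h, which was highest in WT MEFs without DOX. Gpr183 lay under the floor on all arrays, from 4.55 in WT MEFs with DOX to 6.42 on the Nanog KO array. Of 12 oxysterol genes measured, 1 of 7 above the floor was apart between the KO-labelled library with DOX and WT MEFs without DOX, Cyp7b1 at 1.27. In that comparison 4.51% of all genes were apart.

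Of the chemokine genes of the class of Cxcl15, Ppbp was, like it, highest in the KO-labelled library with DOX and low in WT MEFs with DOX (5.26) and on the Nanog KO array (5.08). Unlike Cxcl15, Ppbp also lay above the floor in the KO-labelled library without DOX (9.61), in WT MEFs without DOX (9.15) and in WT ESCs (7.57). Cxcl1 read 7.19, Cxcl2 5.52, Cxcl5 8.73 and Ppbp 10.94 in the KO-labelled library with DOX, against 8.44, 7.78, 9.05 and 9.15 in WT MEFs without DOX, so that Ppbp alone was 2-fold higher, by 1.79, and Cxcl1 and Cxcl2 were lower by more than 2-fold. Both genes of the list above the floor, Ppbp and Cxcl5, were higher in the KO-labelled library than in WT MEFs with DOX, by 5.68 and 4.25, and higher with DOX in the MEFs labelled KO, by 1.34 and 1.05. In these comparisons 14.3% and 6.81% of all genes were higher. The neutrophil receptor genes Cxcr1 and Cxcr2 had no row naming them alone and are not analysed here. For Prg4, the synovial and tendon list gave 0 of 14 higher and 2 lower between the KO-labelled library with DOX and WT MEFs without DOX. The lower genes of the list were Thbs4, a tendon matrix protein, at -2.58, and Cd44, a receptor for hyaluronan, at -1.09. In that comparison 1.88% of all genes were higher and 2.63% lower. Between the libraries labelled KO and WT with DOX, 12 of 14 were higher and 2 lower, where 14.3% of all genes were higher. In WT MEFs 12 of 14 were lower with DOX and 1 higher, where 13.7% of all genes were lower. In the MEFs labelled KO 6 of 13 were higher with DOX and 0 lower, where 6.81% of all genes were higher.

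Patterns across the 7 arrays were compared with those of 4086 genes that ranged over at least 2 on the log2 scale and exceeded the floor. With 7 points that share cell type and culture, these correlations only describe likeness. Saa3 was most like Pkia (r = 0.993), Tent5a and Irgm1, Lcn2 most like Gfpt1 (r = 0.997), B3gnt9 and Slc9a9, and Reg3g most like Acss3 (r = 0.995), Car3 and Pcdhb15. Serpina3n was most like Slit3 (r = 0.985), Fbn2 and Hic1, Cxcl15 most like Slc14a1 (r = 0.982), Prokr1 and Lrrn3, and Prg4 most like Trpv2 (r = 0.985), Slc7a8 and Sync. Ch25h was most like P2ry6 (r = 0.993), Msr1 and Cd36, genes that macrophages express.

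Among themselves the genes were unequally alike. Over the 7 arrays Saa3 and Lcn2 correlated at 0.92, Saa3 and Reg3g at 0.90 and Ch25h and Prg4 at 0.86, whereas Reg3g and Prg4 correlated at 0.16. Over the 6 Utx arrays, without the Nanog KO array of higher median, the same pairs gave 0.88, 0.82, 0.93 and 0.49. Reg3g and Cxcl15 correlated at 0.55 over the 7 arrays and at 0.997 over the 6. Each of these values includes the KO-labelled library with DOX, for which the genes were chosen. Against the median of the 14 macrophage markers over the 7 arrays, Ch25h correlated at 0.954, Saa3 at 0.885, Lcn2 at 0.85, Prg4 at 0.69, Reg3g at 0.65, Serpina3n at 0.64 and Cxcl15 at 0.44. Over the 6 Utx arrays the order changed, with Ch25h at 0.996, Prg4 at 0.90, Saa3 at 0.87 and Lcn2 at 0.80. Serpina3n then stood at 0.61, Cxcl15 at 0.56 and Reg3g at 0.52.

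**Figure D4:**
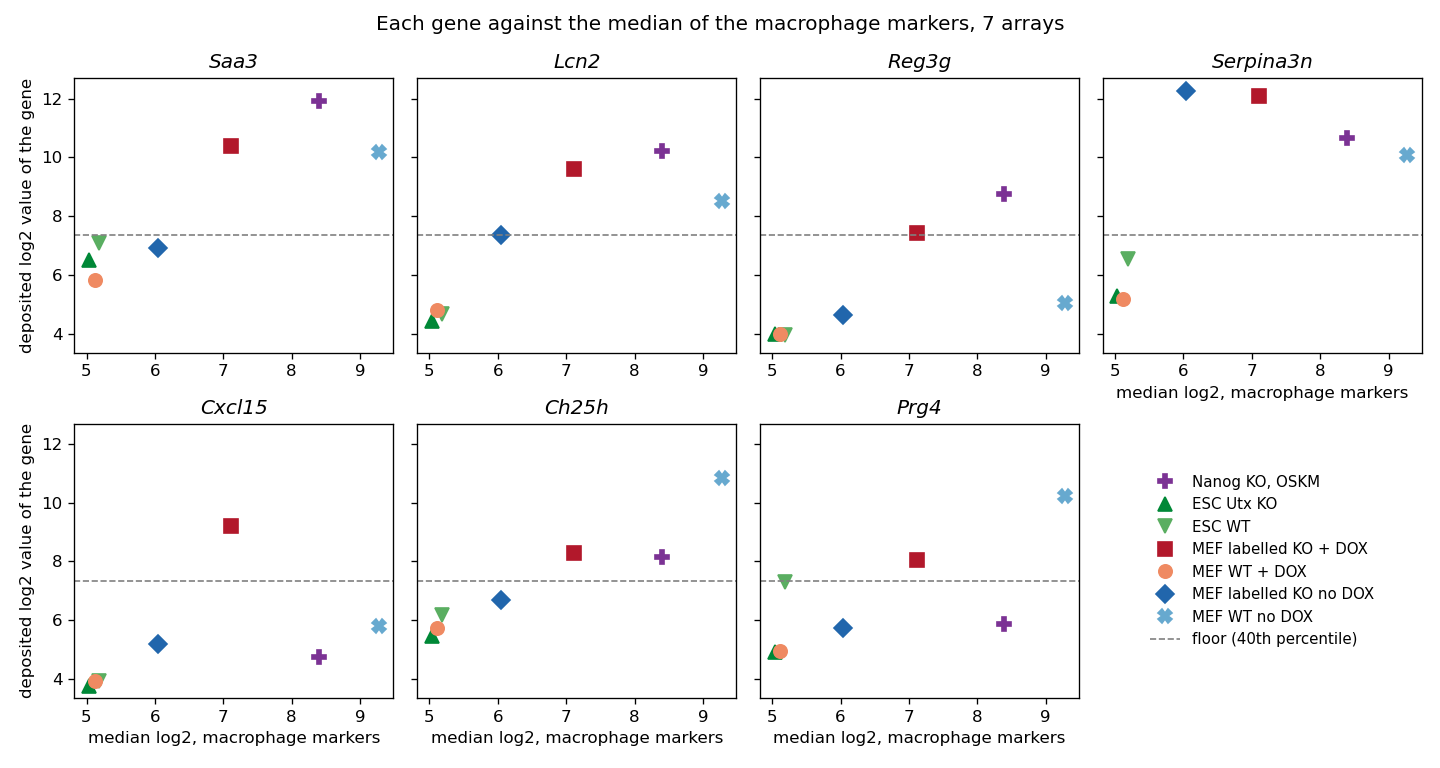
Log2 value of each gene (vertical axis) against the median log2 value of 14 macrophage markers (horizontal axis), 1 point per array, with the floor dashed. Ch25h follows the markers across the 7 arrays, while Serpina3n is highest in a library with a marker median of 6.0 and Cxcl15 in one of 7.1.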

How the data were processed

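Gene expression was measured in 7 mouse samples with 1 Affymetrix array each, and groups were taken from the labels. The log2 values are those the authors deposited. The submitters' processing notes name RMA and Affymetrix Expression Console, with the version and genome build not given in the sources used here. RMA subtracts background, makes arrays alike and sums up probe sets, so low values are compressed and a shift of a whole array is not a change of single genes. The table held 21811 rows, of which 14894 had 1 gene symbol in the platform annotation, 925 with several symbols were left out, and 5992 that it does not list stay unnamed. The identifiers of 14854 named rows were found in RefSeq's GRCm38.p6 table. For the 754 of 13562 genes with more than 1 row, the row of highest mean was taken.

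Differences of 2 arrays were taken for 9 comparisons, with the 2-fold rule and floor given above, and no test was made. The named genes are the 8 chosen ones, up to 4 genes of each list per comparison with the largest difference past the threshold, 12 genes that may always be named, and for each chosen gene the 3 with the most similar pattern. The chosen genes and the lists were set with earlier results of these data known. The counting was tested on simulated data with known differences. Alternatives covered array scaling (medians aligned, quantile normalization), a floor at the 60th percentile (8.48) or no floor, a 1.5-fold threshold, the mean over rows and, added later, an exchange of the KO MEF libraries between their DOX labels. Python 3.11.15 with numpy 2.4.6, pandas 2.3.3 and matplotlib 3.10.9 was used.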

Additional observations from a re-analysis of the deposited data

Results flagged for a closer look

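For 6 genes the DOX difference had opposite signs in the MEFs labelled KO and in WT MEFs, at 2-fold or more in each, with 1 array per condition. The difference between the DOX differences, labelled KO minus WT, was 7.85 for Saa3, 7.58 for Prg4, 6.69 for Ch25h, 5.94 for Lcn2, 5.89 for Cxcl15 and 3.82 for Reg3g. It was not tested. For Cxcl15 and Reg3g both WT values lay under the floor, which was not applied in this count of 6. The share of all genes with such opposite signs was not counted. Of all genes above the floor, 9.74% were apart with DOX in MEFs labelled KO and 25.6% in WT MEFs. Because the genes were chosen for their gain in the KO-labelled library with DOX, a positive difference there was favoured. The genotype labels and the DOX labels of the KO libraries enter all 6 values, and Pou5f1 differed between these libraries by -6.14, against 4.40 in WT MEFs. Exchanging the KO MEF libraries between their DOX labels only turns the sign of each KO difference. The 6 genes, picked for opposite signs, must then share the sign of WT MEFs, for example -3.50 against -4.35 for Saa3. Nothing is read from that sameness. Serpina3n, which is not among the 6, then differed by 0.19 against -4.90 in WT MEFs. The difference of differences was then 0.85 for Saa3, 2.96 for Prg4, 3.51 for Ch25h, 1.46 for Lcn2, -2.17 for Cxcl15 and -1.75 for Reg3g.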

How the results depend on the processing

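No paired analysis was possible because each condition had 1 array. Leaving out a library ends its comparison, so no count without the libraries labelled KO was made. Of 378 differences of single genes under the alternatives of scaling, floor, threshold and rows, 358 kept their side of the threshold. Of the others, 10 dropped below it and 10 came past it. Among called differences 0 changed sign, while sign changes of differences that were not called were not counted. Counts of the 7 genes kept within 1.5 times in 49 of 54 cases. The exceptions were the floor at the 60th percentile, with 4 genes higher in the KO-labelled library than in WT MEFs with DOX and 3 higher with DOX in MEFs labelled KO, and the ESCs, where Prg4 made the count 1 with aligned medians and with quantile normalization, and Prg4 and Serpina3n made it 2 with no floor. Over all genes, the Nanog KO counts were 2580 against WT MEFs with DOX and 1974 against WT MEFs without DOX with aligned medians, and 2595 and 1994 with quantile normalization. The higher floor gave 540 genes for DOX in MEFs labelled KO, 238 for the KO-labelled library with DOX against WT MEFs without DOX, 864 for the genotypes without DOX and 178 for the ESCs, as fewer genes are then tested. The 1.5-fold threshold gave 4115 for the genotypes with DOX, 2424 and 3789 for DOX in MEFs labelled KO and in WT MEFs, 1288 for the KO-labelled library with DOX against WT MEFs without DOX, 3224 for the genotypes without DOX, 7243 and 6952 for Nanog KO fibroblasts against WT MEFs with and without DOX, 808 for KO against WT ESCs and 5280 for WT ESCs against WT MEFs without DOX. Exchanging the KO MEF libraries between their DOX labels, an alternative chosen after seeing the data, turned the 6 DOX differences in MEFs labelled KO to -3.50 for Saa3, -2.78 for Reg3g, -2.24 for Lcn2, -4.03 for Cxcl15, -2.31 for Prg4 and -1.59 for Ch25h, so that 6 genes were lower with DOX and of all 888 genes apart 267 were higher and 621 lower. For the genotypes with DOX it left 2 of the 7 genes, with 2290 of all genes apart, 999 higher and 1291 lower. Signal near background limits Reg3g and Cxcl15, which exceeded the floor on 2 arrays and 1 array.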

Other observations

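Other secreted defence genes followed the chosen ones in part. Of 17 antimicrobial genes listed, 7 had a row. Between the libraries labelled KO and WT with DOX, 3 of 5 above the floor were higher and 2 lower. There 14.3% of all genes were higher and 12.1% lower. With DOX in the MEFs labelled KO, 3 of 4 were higher and 1 lower, where 6.81% and 2.93% of all genes were. Of all genes 1.88% were higher and 2.63% lower between the KO-labelled library with DOX and WT MEFs without DOX. In that comparison the chosen genes were split, and 1 of 4 antimicrobial genes above the floor was higher and 2 lower. Slpi, a protease inhibitor of mucosal surfaces, read 8.04 against 6.73, while Lyz2, the lysozyme of macrophages, read 10.52 against 12.06. Pglyrp1, which binds bacterial peptidoglycan, read 8.63 in WT MEFs with DOX and 5.74 in WT MEFs without DOX, a difference of 2.89 in the direction opposite to the chosen genes.

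Genes that glucocorticoids induce were listed together with Nr3c1, the gene of the glucocorticoid receptor. Between the libraries labelled KO with and without DOX, 0 of 10 above the floor were 2-fold apart, where 9.74% of all genes were. The median over the 11 measured was 0.21. Of the adipocyte markers, 5 of 10 had a row. Car3, a carbonic anhydrase of fat and muscle, read 9.70 on the Nanog KO array, 8.51 in the KO-labelled library with DOX, 5.16 in WT MEFs with DOX, 5.51 in the KO-labelled library without DOX and 6.58 in WT MEFs without DOX, and it was among the genes with the pattern most like that of Reg3g. Of the neutrophil markers 1 of 10 had a row, Ly6g, which read 8.49 in WT MEFs with DOX and 3.85 to 5.13 on the other 4 fibroblast arrays, so neutrophils could not be assessed here.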
